A study of Homo sapiens with 6 samples.

Results

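The integrated stress response is represented here by 10 genes, ATF4, ATF3, ATF5, DDIT3, CEBPB, CEBPG, TRIB3, SESN2, PPP1R15A and ASNS, out of 18404 genes measured. They were taken by name, as every probeset that the array annotation assigns to 1 of them, which gave 11 probesets of 32321, with 2 for ATF4 and 1 for each of the others. No probeset shared by several genes named a member. The mRNA of 2 lines was compared, on 3 Affymetrix arrays each. One is the wild-type parental HEK293 Flp-In line, from human embryonic kidney, with a recombination site for placing a transgene. The other is an HEK293 Flp-In line that overexpresses FHA-TRIM71, a FLAG-HA-tagged RNA-binding protein, without interruption. Both lines grew in DMEM with glutamine and serum, and hygromycin B is named for the TRIM71 line only, so transgene, drug and any other difference between the lines cannot be told apart. The labels do not say whether the TRIM71 line is 1 clone or a pool, or whether the 3 arrays of a line came from separate cultures, so a p-value here reflects only how far these 3 arrays of a line scatter, and that scatter may be technical.

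In the integrated stress response, 4 kinases sense lack of amino acids, unfolded protein in the endoplasmic reticulum, double-stranded RNA or lack of heme and phosphorylate the translation factor eIF2. Translation as a whole then slows, while the mRNA of ATF4, whose upstream reading frames normally hold ribosomes back, is translated more. ATF4 is a bZIP transcription factor that pairs with other bZIP factors and induces genes of amino acid import, amino acid synthesis and stress signalling. Because ATF4 is regulated to a large part by translation, its mRNA level need not follow its protein level, and protein was not measured here.

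Values are log2 expression from RMA, given for replicates 1, 2 and 3 of a line in that order, and a change is the TRIM71 mean minus the parental mean. Array medians lay between 6.90 and 6.97, and arrays correlated at 0.996 to 0.997 within a line and at 0.991 to 0.994 between the lines. The TRIM71 probeset stood at 7.23, 7.54 and 7.44 in the parental line and at 10.63, 10.86 and 10.72 in the TRIM71 line, a 10.1-fold difference that goes with the labels. Of 5 HEK293 markers, 4 (NEFL, VIM, PAX2 and SOX2) had a mean at or above the median of all values, 6.95, and NEFM did not. Of these 5, NEFL (−1.45, adjusted p = 9.5e-05 in limma) and SOX2 (−0.46, 0.0035) fell and VIM (0.40, 0.0028) rose, and their summed level was 12.99 to 13.06 in the parental and 12.41 to 12.43 in the TRIM71 line. The part of this shift, which moves with the falls below, in those falls was not tested. Of 14 measured fibroblast, leukocyte and endothelial markers, COL1A1 alone reached it and 0 differed between the lines by the test below, with summed endothelial levels of 6.90 to 7.04 in the parental and 6.91 to 7.02 in the TRIM71 line.

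Of the 10 genes, 8 fell in the TRIM71 line, 0 rose and 2 did not pass, where each gene is represented by its brightest probeset and a call is an adjusted p under 0.05 in limma, with Benjamini-Hochberg adjustment over all 32321 probesets. Among all genes, 12.2% were called lower and 10.0% higher by the same rule. By at least 1.5-fold, 5 of the 10 fell, against 2.71% of all genes, and DDIT3, ASNS, SESN2 and TRIB3 fell to less than 50% of their parental level. All 3 TRIM71 arrays lay below all 3 parental arrays for 9 of the 10, as they did for 23.4% of all genes. The median log2 change was −0.61 over the members and −0.01 over all genes. Members and the lists below were chosen with earlier results of these data known, so these contrasts with all genes are not independent evidence. In an established line measured in bulk, fewer cells with a transcript and less of it per cell cannot be told apart. The ATF4 call rests on 1 of its 2 probesets, and with the dimmer one 7 of the 10 fell.

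**Figure D1:**
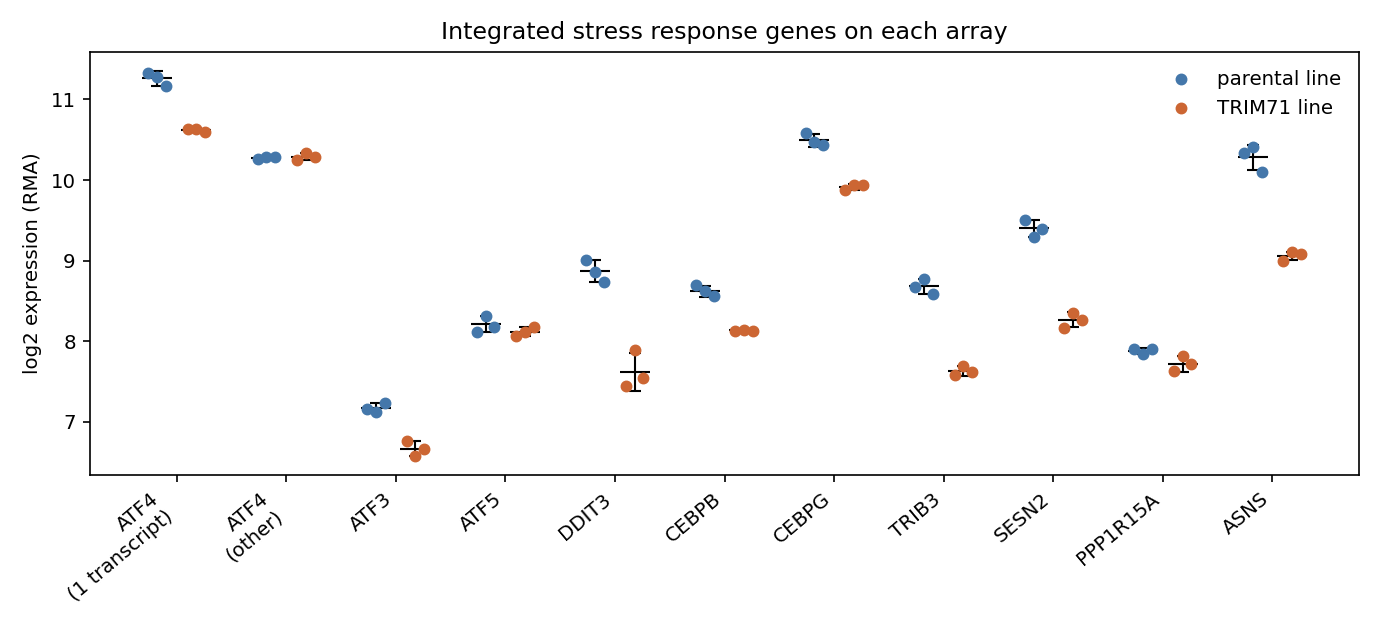
Log2 expression (RMA) of the 11 probesets on each array, with 3 parental arrays in blue and 3 TRIM71 arrays in orange in the order of replicates 1 to 3, and the mean and SD of each line in black. The TRIM71 arrays lie below the parental arrays for the ATF4 probeset of 1 transcript and for 8 other genes, narrowly so for PPP1R15A, and among them for the other ATF4 probeset and ATF5.

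ATF4, the factor the response is built around, differed between its 2 probesets. The brighter, probeset 8180337, is annotated to a single RefSeq transcript. It stood at 11.33, 11.28 and 11.16 in the parental line and at 10.63, 10.63 and 10.59 in the TRIM71 line. The lowest parental array lay 0.53 above the highest TRIM71 array. The change was −0.64 (SE 0.06, 95% interval −0.78 to −0.50, adjusted p = 0.0013 in limma), or 64.1% of the parental level.

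The other ATF4 probeset, 8073148, is annotated to 2 accessions, one of them the other RefSeq transcript of the gene. Probe sequences were not available, so which transcripts each probeset reads could not be seen. Probeset 8073148 stood at 10.26, 10.28 and 10.28 in the parental line and at 10.25, 10.33 and 10.29 in the TRIM71 line, so the lines overlapped. Its change was 0.02 (SE 0.05, adjusted p = 0.87 in limma), and its 95% interval of −0.09 to 0.13 does not reach the fall at the first probeset. The difference between the probesets, the first minus the second, was 0.98 ± 0.10 in the parental and 0.32 ± 0.05 in the TRIM71 line (SD, n = 3), a shift of −0.66 with a two-sided exact permutation p of 0.1, the smallest that 3 against 3 arrays allow. The ATF4 call thus belongs to 1 probeset and not to the gene as a whole. Of 114 genes with several probesets and at least 1 of them called lower, 85 had another that was not.

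Among the bZIP partners, DDIT3, which encodes CHOP, a C/EBP relative that ATF4 induces under prolonged stress, fell about as much as ASNS, the other of the 2 largest falls; which of them was larger changed with the array left out. It stood at 9.01, 8.86 and 8.74 in the parental line and at 7.44, 7.89 and 7.54 in the TRIM71 line. TRIM71 replicate 2 was the highest of its group and still 0.85 below the lowest parental array. DDIT3 changed by −1.25 (SE 0.13, 95% interval −1.57 to −0.94, adjusted p = 0.0021 in limma), to 42.0% of its parental level, and had the widest interval of the 11 probesets.

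CEBPG, a C/EBP protein without an activation domain of its own that dimerizes with ATF4, stood at 10.58, 10.47 and 10.43 in the parental line and at 9.87, 9.94 and 9.94 in the TRIM71 line. CEBPB, a C/EBP activator, stood at 8.70, 8.62 and 8.56 in the parental line and at 8.13, 8.14 and 8.13 in the TRIM71 line. Neither gene overlapped between the lines. CEBPG changed by −0.58 (SE 0.06, adjusted p = 0.0020 in limma) and CEBPB by −0.49 (SE 0.05, adjusted p = 0.0023).

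ATF3, a stress-induced factor that often acts as a repressor, stood at 7.16, 7.12 and 7.23 in the parental line and at 6.76, 6.58 and 6.66 in the TRIM71 line. The lines did not overlap, and the TRIM71 values lie below the median of all values. ATF3 changed by −0.50 (SE 0.06, adjusted p = 0.0044 in limma).

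ATF5, the factor closest to ATF4 in its bZIP domain and also controlled by upstream reading frames, did not pass. It stood at 8.11, 8.32 and 8.18 in the parental line and at 8.07, 8.11 and 8.18 in the TRIM71 line, with overlap. Its difference was −0.08 (SE 0.07, adjusted p = 0.50 in limma), with a 95% interval of −0.25 to 0.08.

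The feedback inhibitors of the response moved unequally. TRIB3, a pseudokinase that binds ATF4 and CHOP and restrains them, stood at 8.67, 8.77 and 8.59 in the parental line and at 7.58, 7.70 and 7.62 in the TRIM71 line. The gap between the lines was 0.88. TRIB3 changed by −1.04 (SE 0.07, adjusted p = 4.8e-04 in limma), the smallest adjusted p of the 11 probesets.

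PPP1R15A, or GADD34, which directs protein phosphatase 1 to eIF2 and so ends the response, stood at 7.91, 7.84 and 7.90 in the parental line and at 7.63, 7.82 and 7.72 in the TRIM71 line. All 3 TRIM71 arrays were lower, but the lines were only 0.01 apart, and the difference of −0.16 (SE 0.06) had an unadjusted p of 0.047 and an adjusted p of 0.16 in limma. PPP1R15A was thus not called.

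The members further downstream fell by more than 2-fold. ASNS, asparagine synthetase, stood at 10.33, 10.41 and 10.10 in the parental line and at 9.0, 9.11 and 9.08 in the TRIM71 line, a gap of 0.99. ASNS changed by −1.22 (SE 0.09, 95% interval −1.42 to −1.01, adjusted p = 6.2e-04 in limma), to 43.0% of its parental level. SESN2, a leucine-binding sestrin that restrains mTORC1 and is induced by ATF4 and by p53, stood at 9.51, 9.29 and 9.39 in the parental line and at 8.17, 8.35 and 8.27 in the TRIM71 line. SESN2 changed by −1.13 (SE 0.08, 95% interval −1.32 to −0.95, adjusted p = 5.7e-04 in limma), with a gap of 0.94.

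**Figure D2:**
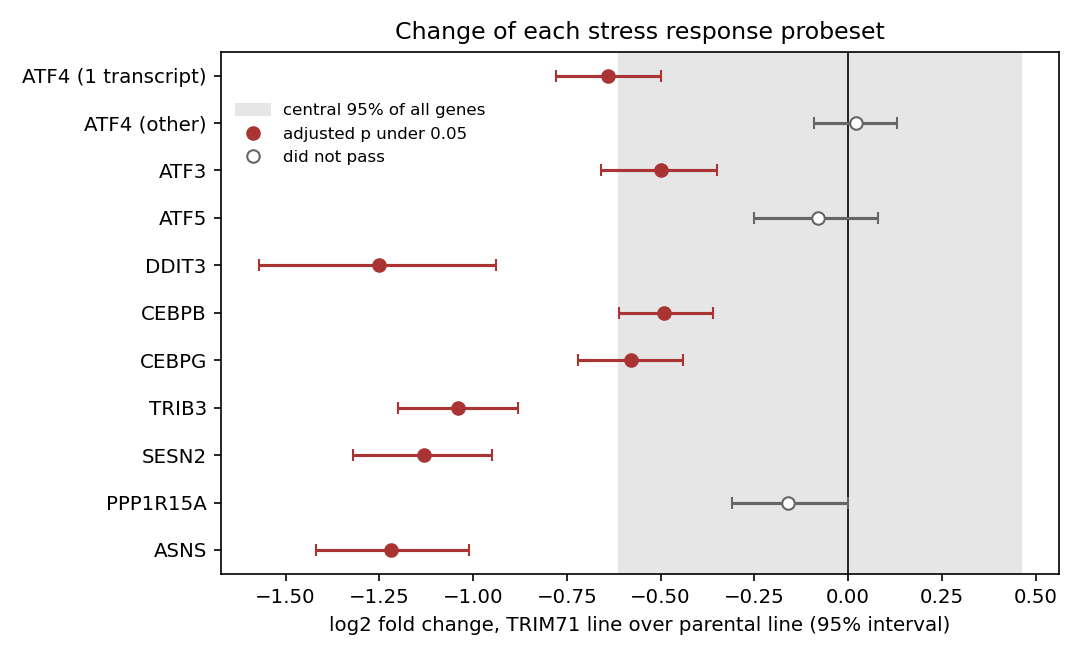
Log2 fold change of each of the 11 probesets, TRIM71 line over parental line, with 95% intervals from limma on the horizontal axis, filled points for an adjusted p under 0.05, and grey shading from −0.61 to 0.46 for the central 95% of all genes. DDIT3, TRIB3, SESN2 and ASNS lie wholly left of the shading, and the intervals of the other ATF4 probeset and ATF5 include 0.

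The 10 genes were displaced to a like extent on every TRIM71 array. Relative to the parental mean of each gene, the median over the 10 was −0.63, −0.61 and −0.61 on TRIM71 replicates 1, 2 and 3, and 10 of 10 were below that mean on each. On the parental arrays the same median was 0.06, −0.01 and −0.07, and replicate 3 had 8 of 10 genes below the mean. Whether members changed by unequal amounts was tested for 9 pairs, as the log2 value of ATF4 (brighter probeset) minus that of another member on the same array. The pairs with DDIT3 (0.61), ASNS (0.57), SESN2 (0.49) and TRIB3 (0.40) shifted upward, since these genes fell by more than ATF4. The pairs with ATF5 (−0.56), PPP1R15A (−0.49) and CEBPB (−0.16) shifted downward. In these 7 pairs the lines did not overlap, at the smallest possible exact permutation p of 0.1 (0.129 after Benjamini-Hochberg adjustment over 9 pairs), and no pair can pass 0.05 with 3 arrays a line. ATF4 itself changed by −0.64, so a pair with a gene that did not change would shift downward too. The share of non-overlapping pairs of ATF4 with all other genes was not counted, so the 7 pairs have no baseline. The pairs with ATF3 (−0.14) and CEBPG (−0.06) overlapped (exact permutation p = 0.3, adjusted 0.3). With the other ATF4 probeset in its place all 9 shifts were positive, from 0.10 for ATF5 to 1.27 for DDIT3.

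The 10 genes lie on chromosomes 1, 7, 12, 19, 20 and 22. Chromosome 2, where 28.0% of genes were called higher against 10.0% in all, holds no member. The 10 measured genes nearest to each member along the chromosome, 5 on each side, had median log2 changes between −0.10 and 0.16. Near CEBPG, TRIB3 and PPP1R15A 3 of 10 neighbours fell and 0 rose, near ATF5 2 fell and 0 rose, and near ATF4 and ATF3 1 fell and 0 rose. Near CEBPB 0 fell and 3 rose, and near ASNS and SESN2 0 fell and 2 rose. Near DDIT3, where MARS1 and INHBE of the lists below are among the 10 neighbours, 2 fell and 1 rose. CEBPA, near CEBPG, and FGF21, near PPP1R15A, are also genes of those lists, and both were called lower. The share called lower over all genes was 12.2%. The lowest single neighbours were at −0.76 near DDIT3 and −0.74 near TRIB3.

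Promoter sequences of the members were searched because ATF4 with a C/EBP partner binds a composite site, the C/EBP-ATF response element, whose core was searched as TGATGNAA on both strands. RefSeq promoter windows of GRCh38.p14, from 250 bases before to 50 after each listed start, were found for 10 of 10 members (20 windows). The core was in 3 of the 20 windows (15.0%) and in 3.62% of 35097 windows of all genes. The 3 stretches are given with the match in capitals, together with that of CHAC1, the stress signalling target that fell most. That of CEBPG is cut to 30 bases because it lies after another listed start of the gene. The ASNS stretch (chr7:97872409-97872528, minus strand) has its match 68 to 61 bases before the start, the ATF3 stretch (chr1:212565177-212565406, plus strand) 191 to 184 bases before it, the CEBPG stretch (chr19:33374060-33374089, plus strand) 42 to 35, and the CHAC1 stretch (chr15:40953241-40953470, plus strand), where the core reads on the other strand, 209 to 202.
ASNS: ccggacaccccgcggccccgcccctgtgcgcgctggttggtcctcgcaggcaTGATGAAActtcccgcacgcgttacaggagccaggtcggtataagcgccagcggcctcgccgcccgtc
ATF3: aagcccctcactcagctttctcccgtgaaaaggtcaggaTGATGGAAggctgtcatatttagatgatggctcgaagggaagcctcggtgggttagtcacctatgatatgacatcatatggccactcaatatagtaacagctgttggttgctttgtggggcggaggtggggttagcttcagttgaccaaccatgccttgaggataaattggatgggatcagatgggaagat
CEBPG: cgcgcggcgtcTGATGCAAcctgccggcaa
CHAC1: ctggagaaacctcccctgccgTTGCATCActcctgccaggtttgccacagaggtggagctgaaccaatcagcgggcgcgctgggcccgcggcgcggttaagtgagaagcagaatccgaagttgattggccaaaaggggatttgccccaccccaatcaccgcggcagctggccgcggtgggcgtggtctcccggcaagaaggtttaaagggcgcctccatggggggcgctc

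A match is a run of letters and not a measured binding site, and a window without one says nothing about the factor, since many such sites lie outside these windows. The full cAMP response element, TGACGTCA, which does not overlap the core, was in the window of PPP1R15A, 58 to 51 bases before the start, and in 1 of the 20 member windows against 1.85% of all windows. Among the other pathway genes the core was in 7 of 22 windows of aminoacyl-tRNA synthetases and XPOT (31.8%), in 8 of 25 windows of amino acid genes (32.0%) and in 0 of 26 windows of the IRE1 and ATF6 list. All 7 synthetase genes with the core fell, as did 4 of the 10 without it that had a window. Among the members 3 of 3 genes with the core and 5 of 7 without it fell, among amino acid genes 6 of 6 and 7 of 8, and among stress signalling genes 4 of 4 and 7 of 18. Over all measured genes with a window, 15.5% of 511 with the core and 12.8% of 13719 without it were called lower.

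Upstream of ATF4, the kinases and factors that act on eIF2 changed in both directions. A list of 24 genes held eIF2 kinases, eIF2, its exchange factor eIF2B and its phosphatase. It also held NCK1, DNAJC3, GCN1, IMPACT, EIF2A, EIF2D, DELE1 and OMA1, which belong to none of these groups. Of the 24 genes, 5 fell, 4 rose and 15 did not pass (median −0.05), and 0 fell by 1.5-fold. Without 1 array, whichever it was, 2 to 4 fell and 1 to 3 rose, and with the replicate block 2 fell and 1 rose. Over all genes, the shares to set beside this list and those below were 12.2% called lower and 10.0% higher. EIF2B2 fell from 10.28 ± 0.10 to 9.74 ± 0.03 (SD, n = 3; log2 change −0.54, adjusted p = 0.0031 in limma), while EIF2B4, another subunit of the exchange factor, rose from 9.46 ± 0.10 to 9.98 ± 0.09 (0.52, adjusted p = 0.0063). NCK1, an adaptor, rose by 0.35 (adjusted p = 0.015), a call that ended with the replicate block and without TRIM71 replicate 1 or 2 or parental replicate 2 or 3 (adjusted p up to 0.060). PPP1R15B, of the phosphatase, also fell (−0.30) and is given below with the relatives. The others that fell, named here after their values were seen like the other additions of this kind to the lists, were EIF2D (−0.34), IMPACT (−0.29) and GCN1 (−0.18), the last known as the activator of GCN2. Their calls ended with the replicate block (adjusted p = 0.067, 0.052 and 0.11 in limma) and on leaving out single arrays, for EIF2D TRIM71 replicate 1 or 3, for IMPACT any but parental replicate 3, and for GCN1 any of the 6. Without the genes of chromosome 2, where EIF2B4 lies, 5 of 20 fell and 2 rose.

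None of the 4 eIF2 kinases was called lower. EIF2AK3 (PERK, the kinase of the endoplasmic reticulum) rose by 0.31 and EIF2AK4 (GCN2, the kinase of amino acid lack) by 0.21, each at an adjusted p of 0.028 in limma. EIF2AK3 lies on chromosome 2 with EIF2AK2 (PKR), which differed by 0.15 (adjusted p = 0.15). EIF2AK4 lies on chromosome 15, where 19.5% of genes were called higher, against 10.0% in all. EIF2AK1 (HRI) differed by −0.03 (adjusted p = 0.69). Both kinase calls ended with the replicate block, with median centring, at an adjusted p under 0.01, and on leaving out single arrays. The EIF2AK4 call ended without any 1 of the 6 arrays (adjusted p up to 0.092), and the EIF2AK3 call without any of the 3 TRIM71 arrays, parental replicate 2 or parental replicate 3 (up to 0.095).

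Close relatives of the members were measured as well. PPP1R15B, the constitutive partner of PPP1R15A at the phosphatase, fell by 0.30 on the log2 scale (adjusted p = 0.0090 in limma). Of the tribbles relatives of TRIB3, TRIB2 fell by 0.33 (adjusted p = 0.016) and TRIB1 differed by 0.09 (0.31). Of the sestrin relatives of SESN2, SESN1, known as a p53 target, fell by 0.30 (adjusted p = 0.0079) and SESN3 differed by 0.16 (0.11). JDP2, a repressor related to ATF3, fell by 0.71 (adjusted p = 0.0094). CEBPA fell by 0.32 (adjusted p = 0.031), CEBPD differed by −0.25 (0.083), and CEBPE, dim at 6.20 in the parental line, differed by 0.01 (0.98) with a sign that changed under several alternatives. Over the 13 genes counted here, 5 fell and 2 rose, beside 12.2% lower and 10.0% higher over all genes. The count includes the eIF2 kinases, which act upstream and are not kin of any member. Those that rose were the kinases EIF2AK3 and EIF2AK4, and no relative of a member was called higher. The CEBPA call ended without parental replicate 1, 2 or 3 or TRIM71 replicate 1 or 2 (adjusted p up to 0.11), and the TRIB2 call without parental replicate 2, without TRIM71 replicate 1 (up to 0.062) and with the replicate block.

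**Figure D3:**
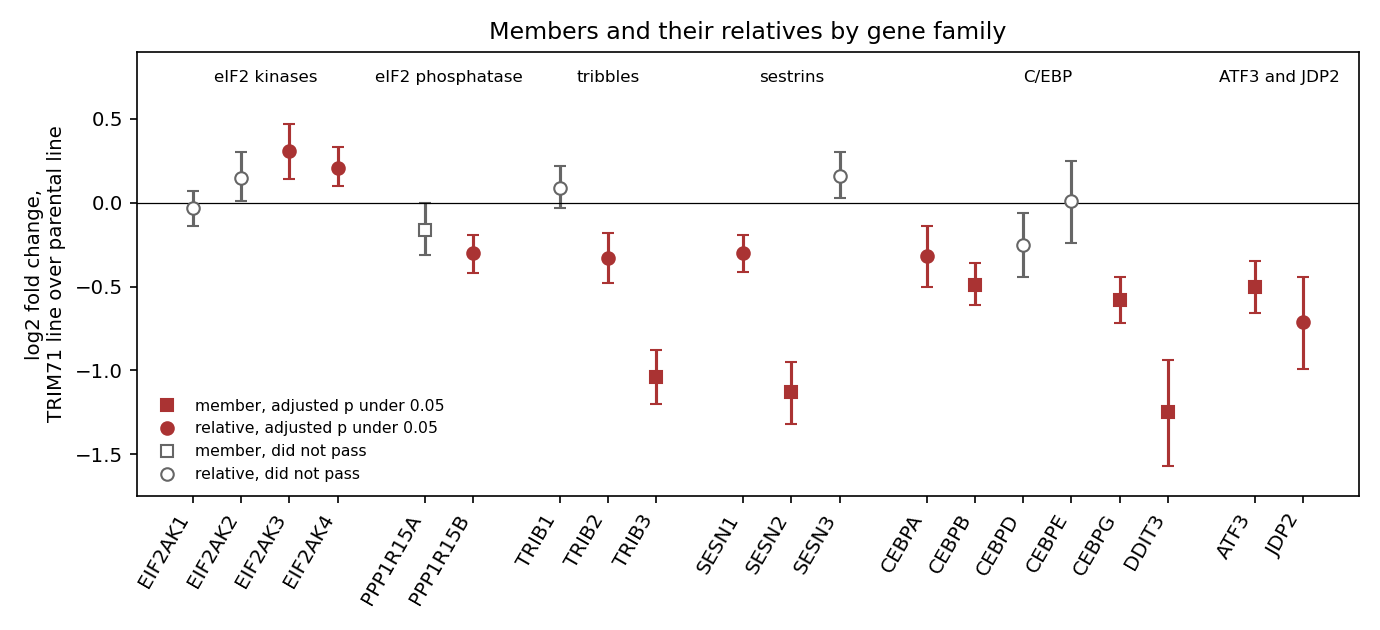
Log2 fold change, TRIM71 line over parental line, with 95% intervals from limma, for members (squares) and relatives (circles) by gene family, filled where the adjusted p was under 0.05. The eIF2 kinases are drawn as relatives though no member is one of them. TRIB3 (−1.04), SESN2 (−1.13) and DDIT3 (−1.25) lie below every relative shown, and EIF2AK3 and EIF2AK4 lie above 0.

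ATF4 and 5 other members are bZIP factors. Of 43 other measured bZIP factors, 4 fell, 4 rose and 35 did not pass (median −0.01). These shares lie near those over all genes, 12.2% lower and 10.0% higher. XBP1, the factor of the IRE1 branch, fell by 0.45 (adjusted p = 0.0033 in limma) and CREBZF by 0.34 (0.0069), while ATF2 rose by 0.60 (5.8e-04) and MAFG by 0.61 at its brightest probeset (0.0016). The others called were CEBPA and JDP2, given above, and FOSL2 (0.49) and CREB5 (0.37), which rose and were named after their values were seen. A second MAFG probeset rose by 0.33 (adjusted p = 0.020) and another did not pass (0.14, adjusted p = 0.15). Without chromosome 2, which holds ATF2, 4 of 39 fell and 2 rose.

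Known targets of ATF4 were taken by role, in stress signalling and secretion and in amino acid import and synthesis. The cytosolic aminoacyl-tRNA synthetases and XPOT were taken as a family and not as known targets. Of 30 targets in stress signalling and secretion, 16 fell, 3 rose and 11 did not pass (median −0.23). CHAC1, which degrades glutathione, fell from 9.28 ± 0.13 to 7.26 ± 0.11 (SD, n = 3; log2 change −2.02, adjusted p = 1.6e-04 in limma), and STC2, a secreted stanniocalcin, from 9.72 ± 0.05 to 8.63 ± 0.12 (−1.09, adjusted p = 5.3e-04). The autophagy gene ATG16L1, on chromosome 2, rose by 0.61 (adjusted p = 0.0013) and the death receptor TNFRSF10B, a target of CHOP, by 0.44 (0.0023). SQSTM1, an autophagy receptor named after its value was seen, rose by 0.20 (0.044), a call that ended with the replicate block (0.12) and without any 1 of the 6 arrays (up to 0.14).

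Among 20 measured targets listed under amino acid import and synthesis, 19 fell, 0 rose and 1 did not pass (median −0.73). The list also holds ALDH1L2, MTHFD2 and MTHFD1L, enzymes of folate metabolism that neither import nor make amino acids. The glycine transporter SLC6A9 fell from 9.69 ± 0.14 to 7.82 ± 0.11 (SD, n = 3; log2 change −1.87, adjusted p = 2.1e-04 in limma), with SLC7A11 (−1.89), ALDH1L2 (−3.49) and SLC7A5 (−1.06). ALDH18A1, of proline synthesis and named after its value was seen, was the one that did not pass (0.06, adjusted p = 0.48). Of 20 aminoacyl-tRNA synthetases and the tRNA exporter XPOT, 13 fell, 0 rose and 7 did not pass (median −0.29). CARS1 fell by 0.87 (adjusted p = 0.0019), YARS1 by 0.68 (0.0015), SARS1 by 0.63 (0.0018) and AARS1 by 0.56 (0.0013).

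The other branches of the unfolded protein response gave a mixed picture. Of 21 genes of the IRE1 and ATF6 branches, 6 rose, 4 fell and 11 did not pass (median 0.09), beside 10.0% higher and 12.2% lower over all genes. The chaperones HSPA5 (0.33, adjusted p = 0.0051 in limma) and HYOU1 (0.28, 0.010) rose, while EDEM1, of the degradation of misfolded glycoproteins, fell by 0.61 (0.0028), as did XBP1. SYVN1 (−0.29) and ERN1, which encodes IRE1 itself (−0.28), also fell and were named after their values were seen. The others that rose, named in the same way, were DNAJB9 (0.45, adjusted p = 0.013 in limma), SDF2L1 (0.20, 0.036), PDIA4 (0.19, 0.044) and PDIA6 (0.17, 0.049). DNAJB9 had the largest rise of the list. The ERN1 call ended with the replicate block (adjusted p = 0.091), with quantile normalization, and without any 1 array but TRIM71 replicate 3 (up to 0.15). The number that rose was 3 whichever array was left out and 2 with the replicate block. Since ATF3, CEBPB and PPP1R15A are also immediate early genes, 17 others of that class were set beside them: 3 fell, 2 rose and 12 did not pass (median −0.02). MYC fell by 0.58 (adjusted p = 0.0011) and KLF10 by 0.50 (0.0064), and MCL1 (0.34, 0.0059) and DUSP1 (0.34, 0.0089) rose. EGR3, named after its value was seen, fell by 0.24 (0.031), a call that ended with the replicate block (0.094), with other normalizations or variance models, and without any 1 array but TRIM71 replicate 2 (up to 0.11).

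**Figure D4:**
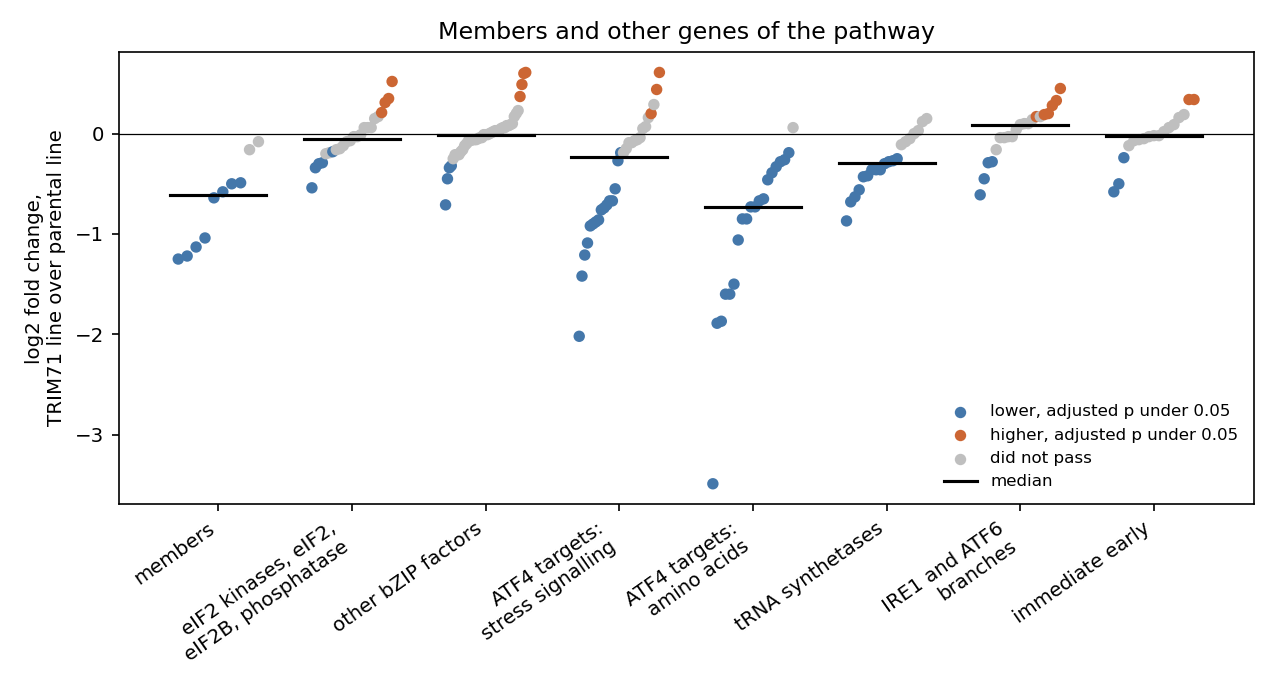
Log2 fold change, TRIM71 line over parental line, of each gene of the members and of 7 lists, sorted within each, with blue for lower and orange for higher at an adjusted p under 0.05, grey for not passed, and a bar at the median. The medians are −0.61 for the members, −0.73 for the amino acid list and −0.05 for the eIF2 list. ALDH1L2 (−3.49), a folate enzyme on the amino acid list, is the lowest point.

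Among 10997 other genes at or above the median level, the profile over the 6 arrays most like that of ATF4 (brighter probeset), measured as the root mean square difference of log2 values centred on each gene's mean, was that of YARS1 (0.0249), the tyrosyl-tRNA synthetase. ZNF606 (0.0274), ZBTB41 (0.0304), HSDL2 (0.0305) and TMX4 (0.0314) followed, with changes between −0.65 and −0.64. The profiles most like that of ATF5 were those of SCAPER (0.0187), COL6A1 (0.0215) and VASH2 (0.0225), each with a change of −0.08. A profile over these 6 arrays includes the difference between the lines, so the like changes follow from the ranking and are not a separate result.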

How the data were processed

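Groups and replicate numbers came from the sample titles. The deposited values are log2 expression, 1 column per array, made by the authors with RMA and affy, as named in the submitters' processing notes. Their versions and the build are not given in the sources used here. RMA equalises the distributions of the arrays, so a change in total mRNA cannot be seen, and their number, 3 a line, limits the precision. A linear model with the line as its term was fitted to all 32321 probesets (limma 3.58.1, R 4.3.3, lmFit and eBayes, no filter) and tested on simulated data. The annotation gave 19158 probesets with 1 symbol, 1388 with several and 11775 with none; only the first were named, and 19128 matched RefSeq GRCh38.p14 by gene ID. The probeset of highest mean stands for its gene.

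Members and lists were chosen with earlier results of these data known. Named were all members and their relatives, TRIM71, from each list up to 4 called genes in order of adjusted p (2 a direction where genes were called both ways), and the genes of most similar profile (5 for ATF4, 3 for ATF5), without LOC, open reading frame or small RNA symbols. Alternatives were variance models, normalizations, filters, probeset choices, the replicate block, array weights, stricter thresholds and each array left out.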

Additional observations from a re-analysis of the deposited data

How the results depend on the processing

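The number of members called lower was 8 under every alternative but 2: it was 6 in a test against a fold of 1.2, where ATF3 (adjusted p = 0.12) and CEBPB (0.073) were lost, and 7 with each gene's dimmest probeset, where ATF4 turned to 0.02. With that probeset the shift of ATF4 against ATF3 (0.52), ATF5 (0.10), CEBPB (0.50), CEBPG (0.60) and PPP1R15A (0.17) changed sign. ATF5 and PPP1R15A stayed uncalled and below 0 in all 19 alternatives, ATF5 between −0.13 and −0.03 and PPP1R15A between −0.21 and −0.11. CEBPE became −0.00 with array weights, −0.01 with quantile normalization, and, without single arrays, ranged from −0.11 (without TRIM71 replicate 3) to 0.09, with −0.01 without parental replicate 2. The cause of these differences was not tested.

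Calls over all genes were 1371 lower and 1019 higher with the replicate block, 471 and 232 against a fold of 1.2, and 1106 and 792 at an adjusted p under 0.01, from 2244 and 1848. Leaving out 1 array gave 1336 to 1709 lower, with fewest without TRIM71 replicate 1 (1336) or parental replicate 2 (1365), and 979 to 1485 higher, with fewest without TRIM71 replicate 2 (979), parental replicate 2 (994), TRIM71 replicate 1 (1121) or parental replicate 3 (1185). Of 171 genes in the lists, 64 fell and 19 rose. With the replicate block 11 rose, against a fold of 1.2 30 fell and 3 rose, at an adjusted p under 0.01 10 rose, and without 1 array 12 to 14 rose. The replicate block changed no member's call. Whether the replicate numbers pair the arrays could not be told. Deviations of same-numbered arrays from their group means correlated at 0.0676, −0.188 and 0.108. Those of differently numbered arrays correlated at −0.279 to 0.245, and with 3 arrays a line the deviations are not independent. Without chromosome 2, added after seeing the data, 61 fell and 13 rose. Dim probesets such as CEBPE limit what can be seen of low transcripts.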
